A study of Arabidopsis thaliana with 6 samples.

Results

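The SAUR genes (small auxin-up RNA) are a large plant family whose short transcripts accumulate quickly after auxin. The 39 genes described here were listed by gene identifier as members of the family, with no threshold on measured values, and all 39 are among the 24267 genes of the count table. RNA was sequenced from seedlings of wild-type Arabidopsis thaliana (Columbia), 2 libraries for each of 3 groups. The first group had spent 72 h on medium with 10 nM melatonin (MT) and the second 72 h on 1 nM IAA (indole-3-acetic acid, an auxin that plants make). The third was a solvent control on 0.1% ethanol, whose labels call it untreated for 72 h. MT and IAA were themselves added from stocks made in ethanol, so ethanol does not set the control apart by its presence, and the labels do not give its final share in the MT and IAA plates. All seedlings were 4 days old when they were moved to these plates and shared medium and day length, and the doses of MT and IAA were not matched. The study asked how far root growth under melatonin depends on IAA.

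SAUR proteins are known to inhibit protein phosphatases 2C of clade D. With these phosphatases held back, proton pumps of the plasma membrane stay active, the wall is acidified and cells expand. SAUR genes are induced by auxin, brassinosteroid and warmth, many respond to light in opposite ways in cotyledon and hypocotyl, and their transcripts are short-lived. Several stand in tandem arrays of similar copies.

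The sample labels name seedlings as the tissue, whereas the series' design names rosette leaves. Of 14 marker genes of root hair, endodermis, stele, root tip, leaf mesophyll and senescent leaf, 13 passed the filter on low counts. Together the 3 root hair markers summed to 50.4 and 54.0 CPM (read counts scaled to library totals, which were adjusted by TMM factors) with MT, 76.5 and 71.9 with IAA, and 68.7 and 48.5 in the control. The endodermis marker CASP1 had 25.6 to 49.7 CPM over the 6 libraries, so transcripts of root markers were present in each. The senescence marker SAG12 had no count in the MT and IAA libraries and at most 0.196 CPM in the control. Library totals were 35953236 to 46076624 counts. Whether the 2 libraries of a group are separate cultures is not stated, so the p-values reflect the spread among these libraries alone, and that spread may be technical.

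Copies of a SAUR gene can exchange reads, so their sequences come first. The letters are those of the RefSeq TAIR10.1 locus with the same identifier. Which build the reads were aligned to is not given in the sources used here. Coordinates are therefore left out. SAUR19 to SAUR24 stand on chromosome 5 within 21.5 kb. Their coding sequences were 87.7 to 95.2% identical over 15 pairs, and 86 bases was the longest run shared without a difference. Of the 276 columns in an alignment of all 6 coding sequences 223 were identical. The first 120 columns, from the start codon, show which bases tell the copies apart there. Untranslated parts of the transcripts were not compared. Capitals mark the 18 columns at which the copies do not all have the same base.
SAUR19: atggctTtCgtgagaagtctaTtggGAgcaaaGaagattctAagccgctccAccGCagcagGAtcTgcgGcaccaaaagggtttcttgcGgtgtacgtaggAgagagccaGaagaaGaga
SAUR20: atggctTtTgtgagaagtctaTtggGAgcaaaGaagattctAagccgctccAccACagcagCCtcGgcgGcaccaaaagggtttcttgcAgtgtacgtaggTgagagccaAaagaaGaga
SAUR21: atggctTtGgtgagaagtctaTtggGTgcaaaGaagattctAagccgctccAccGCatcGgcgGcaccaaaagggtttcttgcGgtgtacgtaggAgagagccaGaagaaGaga
SAUR22: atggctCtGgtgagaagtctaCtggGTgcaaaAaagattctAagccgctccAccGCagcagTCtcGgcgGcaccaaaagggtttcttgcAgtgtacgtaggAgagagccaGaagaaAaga
SAUR23: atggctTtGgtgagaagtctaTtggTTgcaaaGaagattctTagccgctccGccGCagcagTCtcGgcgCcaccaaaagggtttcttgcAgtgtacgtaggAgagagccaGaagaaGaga
SAUR24: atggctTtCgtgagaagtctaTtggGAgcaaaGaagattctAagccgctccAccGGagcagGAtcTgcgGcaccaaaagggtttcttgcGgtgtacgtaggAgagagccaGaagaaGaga
SAUR21 has 114 bases here because of a gap, and so has capitals at 16 of the 18 columns.

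Among the 8 genes SAUR61 to SAUR68, on chromosome 1 within 21.9 kb, identity ran from 45.4 to 89.4% over 28 pairs. SAUR63 and SAUR67 (AT1G29510, for which RefSeq prefers the name SAUR68) were the closest pair and share a run of 91 bases. The 4 genes SAUR26 to SAUR29 on chromosome 3 were 77.7 to 86.3% identical. The genes SAUR14, SAUR15 and SAUR16 are neighbours on chromosome 4 within 6.3 kb but are not near-identical, with 50.2 to 59.0% identity. Nor are the neighbours SAUR6 and SAUR12 (43.1%), SAUR51 and SAUR52 (44.3%) or SAUR1 and SAUR50 (54.9%). Some close copies lie apart in the genome: SAUR12 and SAUR16 were 85.5% identical, SAUR8 and SAUR50 82.3%, and SAUR52 and SAUR53 81.9%. SAUR6 overlaps another gene model on its own strand, that of SAUR7 (AT2G21200), a SAUR gene that is not listed here. SAUR8, SAUR61, SAUR63 and SAUR64 overlap one on the opposite strand. Single values of these overlapping genes and of the near-identical copies are uncertain.

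**Figure D1:**
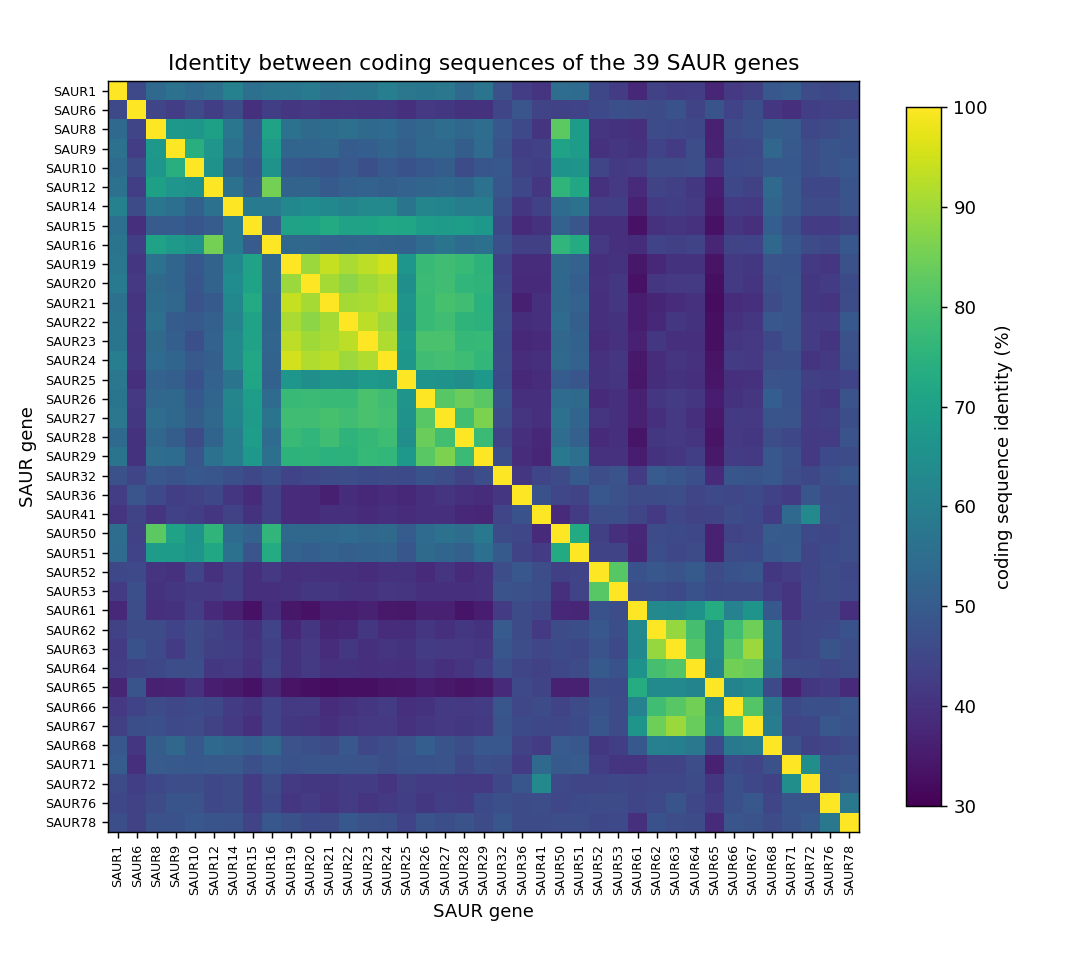
Identity of coding sequences, in percent of alignment columns, for every pair of the 39 SAUR genes, in order of SAUR number on both axes. The square of SAUR19 to SAUR24 is the brightest (87.7 to 95.2%), while SAUR14, SAUR15 and SAUR16 are no more than 59.0% identical to each other.

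SAUR transcripts were of unequal abundance. Per kilobase of spliced transcript, the mean level over all 6 libraries was highest for SAUR78, at 68.2 CPM per kb. Genes of the SAUR76 and SAUR78 type code for proteins known to bind ethylene receptors. SAUR14 followed with 42.0 CPM per kb, SAUR50 with 30.6, SAUR16 with 28.8, SAUR6 with 19.8 and SAUR32 with 15.5. SAUR14, SAUR16 and SAUR50 are known for opposite responses to light in cotyledon and hypocotyl. The next gene, SAUR63, which promotes elongation, had 8.29 CPM per kb. At the low end SAUR25 had 0 and 4 counts with MT, 0 and 2 with IAA, and 3 and 3 in the control. It was too low to be tested, which left 38 of the 39 genes. Counts of the 39 genes summed to 258.0 and 262.3 CPM in the MT libraries, 300.3 and 324.4 CPM in the IAA libraries, and 322.2 and 361.6 CPM in the control. The MT libraries had the lowest sums and SAUR78 alone gave 24.9 to 29.6% of the counts of the 39 genes in each library.

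**Figure D2:**
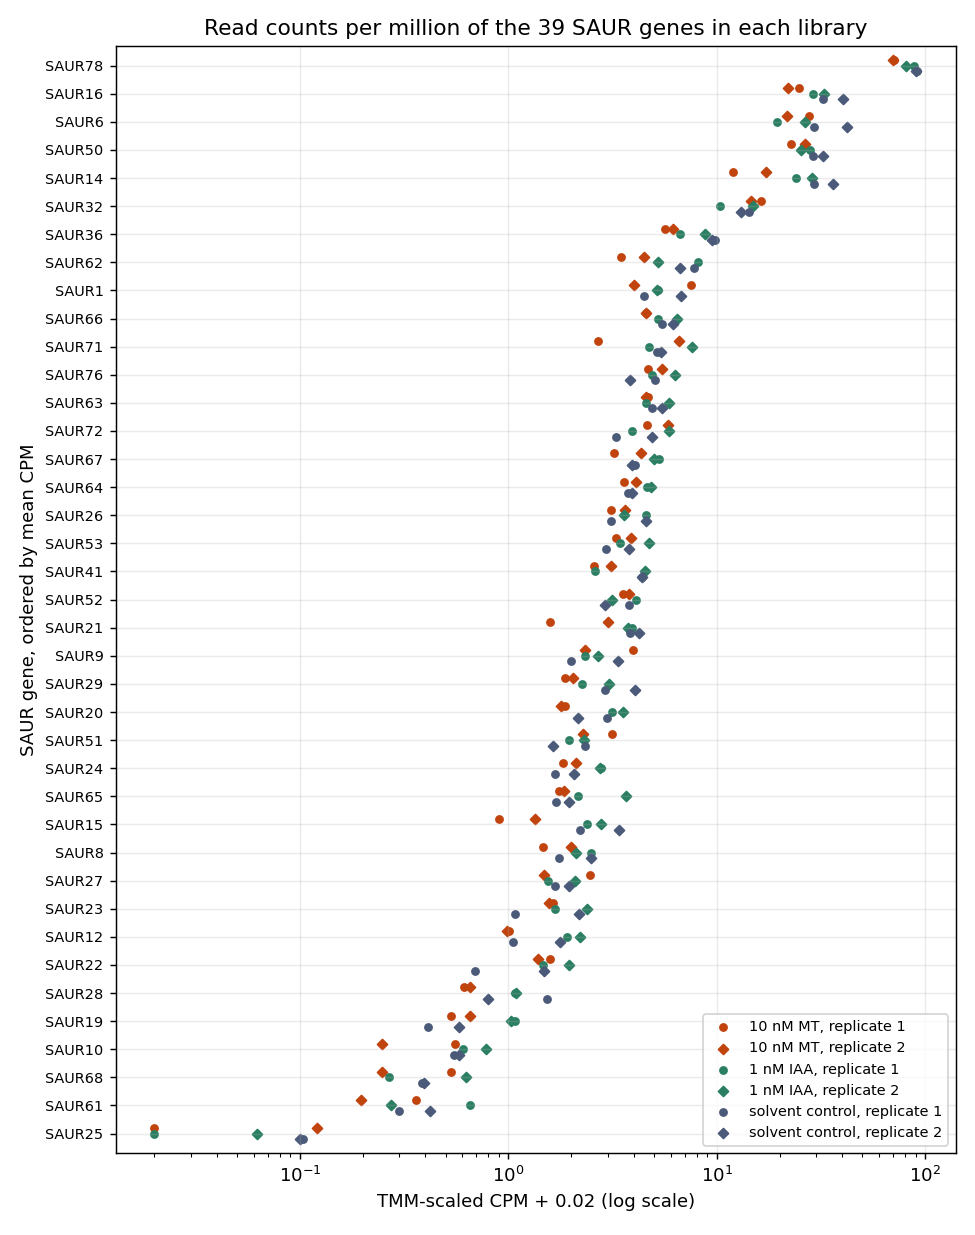
TMM-scaled CPM plus 0.02 (log axis) of the 39 SAUR genes in each of the 6 libraries, with genes ordered by mean CPM and replicate 1 and 2 of each group as circles and diamonds. SAUR78 lies near 70 to 92 CPM in all libraries. Both MT libraries lie left of the control for 16 genes, SAUR14, SAUR15, SAUR16, SAUR36 and SAUR78 among them, and right of it for SAUR32.

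With MT against control, 3 SAUR genes fell, SAUR14, SAUR16 and SAUR78, and 0 rose (edgeR's quasi-likelihood test, adjusted p under 0.05 over all genes tested). That is 7.89% of the 38 tested genes, against 3.65% of all 21355 tested genes called lower and 3.99% called higher. In either direction 7.65% of all genes were called, close to the share of the SAUR genes. The other 35 did not pass. The log2 fold changes of the 38 genes ran from -1.33 to 0.45. Their median was -0.19, beside 0.002 over all genes, and 26 of the 38 were below 0 (68.4%, against 49.8% of all genes). The 2 control libraries differed from each other by a similar amount, taken as a ratio of single libraries and not as a fitted difference of groups. Of the 38 genes 27 were higher in control replicate 2 than in replicate 1 (71.1%, against 52.1% of all genes), with a median log2 ratio of 0.18. Between the 2 MT libraries that median was 0.08. At an unadjusted p under 0.05 there were 10 SAUR genes, all lower, or 26.3%, against 25.2% of all genes in either direction. In 16 of the 38 genes both MT libraries lay below both control libraries (27.7% over all genes), and in 1, SAUR32, both lay above them (27.8% over all genes).

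SAUR14 (AT4G38840) had 12.0 and 17.2 CPM with MT, 23.9 and 28.5 CPM with IAA, and 29.2 and 35.9 CPM in the control. Both MT libraries lay below every other library. Its log2 fold change with MT against control was -1.15 ± 0.20 (SE; adjusted p = 0.0197), or 0.449 times the control level. SAUR16 (AT4G38860), which promotes the opening of cotyledons in the light, had 24.7 and 22.0 CPM with MT, 28.9 and 32.6 CPM with IAA, and 32.3 and 40.3 CPM in the control. The MT libraries again did not overlap the others, and the log2 fold change with MT against control was -0.64 ± 0.13 (adjusted p = 0.0362). Between them on the chromosome, SAUR15 (AT4G38850), known for strong auxin induction and for a role in lateral root formation, was measured at low level. It had 0.877 and 1.32 CPM with MT, 2.37 and 2.77 CPM with IAA, and 2.18 and 3.37 CPM in the control. Its value with MT against control, -1.33 ± 0.33, was the lowest of the 38 but did not pass (adjusted p = 0.0581).

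SAUR78 (AT1G72430) had 70.7 and 70.4 CPM with MT, 88.8 and 80.9 CPM with IAA, and 91.7 and 90.7 CPM in the control. The change with MT against control was small and uniform between libraries (-0.37 ± 0.07, adjusted p = 0.0331), 0.774 times the control level. Its relative SAUR76 had 4.67 and 5.45 CPM with MT and 5.06 and 3.83 CPM in the control, and these overlapped (0.19 ± 0.22).

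Leaving out single libraries ended each of these 3 calls in at least 1 case. That of SAUR14 was lost without control replicate 1 (adjusted p = 0.0515), control replicate 2 (0.0884) or MT replicate 1 (0.0556). That of SAUR16 was lost without any library other than control replicate 1 (0.0595 to 0.137), and that of SAUR78 when any 1 of the 6 was left out (0.0526 to 0.129). Under these single omissions the log2 fold change was -1.43 to -0.91 for SAUR14, -0.79 to -0.47 for SAUR16 and -0.38 to -0.36 for SAUR78.

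**Figure D3:**
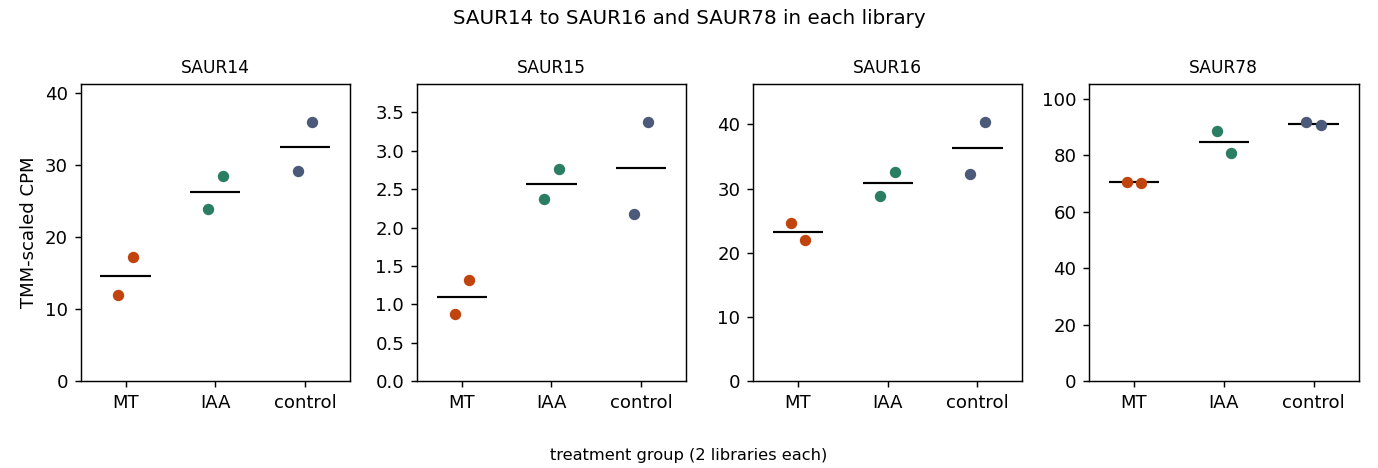
TMM-scaled CPM of SAUR14, SAUR15, SAUR16 and SAUR78, with each point a library, the line the mean of 2 libraries, and groups on the x axis. In all 4 panels both MT points lie below the IAA and control points, SAUR14 averaging 14.6 CPM with MT, 26.2 with IAA and 32.5 in the control.

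With the counts of SAUR14, SAUR15 and SAUR16 added up per library, the locus had 37.5 and 40.5 CPM with MT, 55.3 and 63.9 CPM with IAA, and 63.7 and 79.5 CPM in the control. The sum fell with MT against control (-0.88 ± 0.13, adjusted p = 0.0123), the only call among 7 such locus sums, in a table where 7.67% of all rows were called. Without MT replicate 1 that call was lost (-0.82, adjusted p = 0.0593). Locus sums hold the listed genes alone, and SAUR genes outside the 39 with nearby identifiers were not added. These are SAUR13 by SAUR14, SAUR7 by SAUR6, SAUR2 to SAUR5 and SAUR49 by SAUR1 and SAUR50, and SAUR73 among SAUR26 to SAUR29. The sequences upstream of SAUR14, SAUR15 and SAUR16 are shown because their summed counts fell. They are the 250 bases before each annotated start, on the gene's strand. Capitals mark a match to TGTCTC (an auxin response element), TGTCGG (another form of it), CACGTG (the G-box) or CATATG, on either strand.
SAUR14: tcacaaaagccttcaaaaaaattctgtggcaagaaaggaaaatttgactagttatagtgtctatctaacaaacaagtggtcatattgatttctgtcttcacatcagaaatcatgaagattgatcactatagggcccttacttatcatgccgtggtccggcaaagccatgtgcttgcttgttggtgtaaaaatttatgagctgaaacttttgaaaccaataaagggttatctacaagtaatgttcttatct
SAUR15: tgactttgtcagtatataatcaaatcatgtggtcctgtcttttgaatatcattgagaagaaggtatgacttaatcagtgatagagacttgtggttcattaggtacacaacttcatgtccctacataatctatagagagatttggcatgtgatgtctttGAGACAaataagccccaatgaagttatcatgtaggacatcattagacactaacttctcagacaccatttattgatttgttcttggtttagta
SAUR16: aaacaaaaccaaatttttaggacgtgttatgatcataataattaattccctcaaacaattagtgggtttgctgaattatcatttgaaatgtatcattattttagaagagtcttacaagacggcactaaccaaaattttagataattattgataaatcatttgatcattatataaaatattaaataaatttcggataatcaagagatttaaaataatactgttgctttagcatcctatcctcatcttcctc
Only SAUR15 held a match here, TGTCTC on the opposite strand at 92 bases before the start (its reverse complement on the printed strand), and no match says only that these letters are not in this window. In windows of 250 bases before to 50 after the start, TGTCTC was in 7 of 39 SAUR genes (17.9%) and in 14.2% of 27443 protein-coding genes. TGTCGG was in 2 SAUR genes (5.1%, against 5.1% of all) and CACGTG in 0 (against 7.7% of all). CATATG was in 9 SAUR genes (23.1%, against 8.1% of all), among them SAUR20, SAUR21, SAUR22 and SAUR24 of the array on chromosome 5. The ends of CACGTG and CATATG can overlap the start of TGTCTC or TGTCGG, and such matches are descriptions, not sites.

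Several genes had lower values with MT that did not pass. SAUR36 (AT2G45210), which promotes leaf senescence, had 5.63 and 6.16 CPM with MT and 9.81 and 9.51 CPM in the control, without overlap (-0.71 ± 0.18, adjusted p = 0.0576). SAUR62 had 3.45 and 4.46 CPM with MT and 7.74 and 6.64 CPM in the control (-0.86 ± 0.25, adjusted p = 0.0908). SAUR29, a copy of the array that includes SAUR26, had 1.84 and 2.03 CPM with MT and 2.88 and 4.04 CPM in the control (-0.84 ± 0.27, adjusted p = 0.112). SAUR28 of that array had 0.594 and 0.634 CPM with MT and 1.51 and 0.777 CPM in the control (-0.89 ± 0.42), whereas SAUR26, its most abundant copy, overlapped between the groups (-0.19 ± 0.25). SAUR21, of the array on chromosome 5, had 1.56 and 2.97 CPM with MT and 3.83 and 4.23 CPM in the control (-0.83 ± 0.31, adjusted p = 0.154). Without MT replicate 2 it was called (-1.36, adjusted p = 0.0378). SAUR20, its neighbour, had 1.84 and 1.77 CPM with MT and 2.96 and 2.14 CPM in the control (-0.50 ± 0.25, adjusted p = 0.261). SAUR41, a gene of cell expansion, had 2.55 and 3.07 CPM with MT and 4.36 and 4.34 CPM in the control (-0.63 ± 0.29, adjusted p = 0.229). Its relatives SAUR71 and SAUR72 had -0.19 ± 0.42 and 0.36 ± 0.29. Of the 38, SAUR71 had the largest ratio between the MT libraries, at 2.66 and 6.54 CPM. SAUR50, with -0.31 ± 0.12 (adjusted p = 0.15), and SAUR52, with 0.13 ± 0.23, did not pass either. Of the other 6 locus sums 0 passed and 5 lay lower with MT, with -0.27 ± 0.15 for SAUR19 to SAUR24 (adjusted p = 0.325), -0.30 ± 0.09 for SAUR61 to SAUR68 (0.0902), -0.38 ± 0.15 for SAUR26 to SAUR29 (0.176), -0.25 ± 0.10 for SAUR1 with SAUR50 (0.175) and -0.54 ± 0.22 for SAUR6 with SAUR12 (0.193). The sum of SAUR51 and SAUR52 lay higher (0.26 ± 0.20, adjusted p = 0.463). The 19 tested genes that were neither called, nor the most abundant copy of a locus, nor apart from the control by at least 0.5 without overlap, ran with MT against control from -0.52 (SAUR10) to 0.45 (SAUR51).

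With IAA against control 0 of 38 SAUR genes passed, against 0.272% of all genes called higher, 0.0609% called lower and 0.332% in either direction. The smallest adjusted p among the 38 was 0.287, and DESeq2 called 0 of them, with 768 genes called by DESeq2 over all. At an unadjusted p under 0.05 there were 3 genes, SAUR19 and SAUR24 higher and SAUR6 lower (7.89%, against 14.3% of all genes). The log2 fold changes ran from -0.64 to 1.11, with a median of 0.10 beside 0.000 over all genes. Above 0 were 23 of 38 and below 0 were 15 (39.5%, against 49.9% of all genes). Between the 2 IAA libraries the median log2 ratio of the 38 genes was 0.22. Libraries did not overlap for 8 genes that were higher (23.6% over all genes) and for 5 that were lower (24.8% over all genes).

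The highest value with IAA was that of SAUR19 (AT5G18010), whose protein inhibits clade D phosphatases. It had 18 and 25 counts with MT, 47 and 48 counts with IAA, and 14 and 21 counts in the control. In CPM that was 1.06 and 1.01 with IAA and 0.391 and 0.562 in the control, without overlap (1.11 ± 0.39, adjusted p = 0.288). SAUR24 had 2.77 and 2.73 CPM with IAA and 1.65 and 2.04 CPM in the control (0.58 ± 0.24, adjusted p = 0.339). SAUR20 also lay higher in both IAA libraries (3.13 and 3.51 CPM) than in the control (2.96 and 2.14 CPM), with 0.38 ± 0.24. SAUR21, the copy of this array with the highest mean CPM, had 3.90 and 3.74 CPM with IAA and 3.83 and 4.23 CPM in the control (-0.08 ± 0.30). Summed over SAUR19 to SAUR24, the locus had 14.0 and 15.3 CPM with IAA and 10.6 and 12.6 CPM in the control (0.34 ± 0.15, adjusted p = 0.378). The sum does not depend on how the counted reads were split among the copies, but it lacks any shared read that was not counted.

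Of SAUR61 to SAUR68, known from SAUR63 for a role in elongation, SAUR65 had 2.14 and 3.66 CPM with IAA and 1.68 and 1.93 CPM in the control (0.69 ± 0.31, adjusted p = 0.381). The locus sum was 30.7 and 31.8 CPM with IAA and 28.1 and 28.7 CPM in the control (0.14 ± 0.09, adjusted p = 0.532). SAUR6, the most abundant of its pair of neighbours, had 19.5 and 26.4 CPM with IAA and 29.1 and 42.3 CPM in the control (-0.64 ± 0.23, adjusted p = 0.287). It also had 27.6 and 21.6 CPM with MT (-0.54 ± 0.23, adjusted p = 0.197). SAUR12, its neighbour, had 0.990 and 0.963 CPM with MT, 1.89 and 2.19 CPM with IAA, and 1.03 and 1.74 CPM in the control. It lay below the control with MT (-0.51 ± 0.34) and above it with IAA (0.55 ± 0.33), and neither value passed. With IAA against control those 19 genes ran from -0.12 (SAUR32) to 0.65 (SAUR22), and the comparisons with MT and with IAA share the control libraries.

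**Figure D4:**
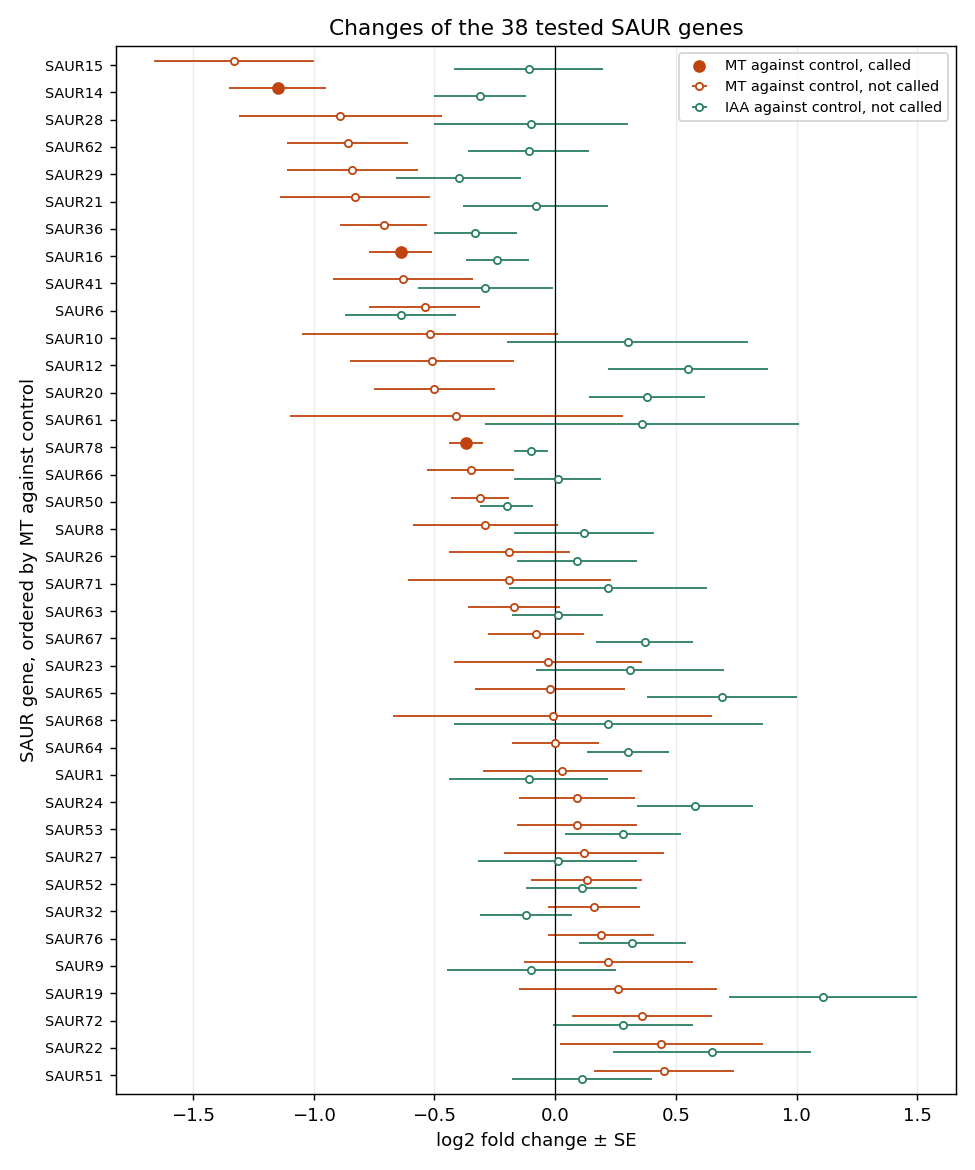
Log2 fold change ± SE of the 38 tested SAUR genes with MT against control (orange) and IAA against control (green), with filled points for genes called at an adjusted p under 0.05. The filled points are SAUR14, SAUR16 and SAUR78 with MT, and no gene is filled with IAA.

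With MT against IAA 0 of 38 SAUR genes passed, against 0.089% of all genes called higher, 0.0843% called lower and 0.173% in either direction. The smallest adjusted p was 0.124, and DESeq2 called 1 gene, SAUR14, with 1225 genes called by DESeq2 over all. DESeq2 gave an adjusted p for 21 of the 38 here and none for the other 17, SAUR12, SAUR15, SAUR19 and SAUR20 among them. At an unadjusted p under 0.05 there were 8 SAUR genes, all lower with MT (21.1%, against 17.4% of all genes in either direction). The log2 fold changes ran from -1.22 to 0.34 with a median of -0.35 beside -0.005 over all genes. Below 0 were 30 of 38 (78.9%, against 50.8% of all genes). Libraries did not overlap for 20 genes lower with MT (26.1% over all genes) and for 0 higher with MT (24.3%). All 6 copies SAUR19 to SAUR24 and all 8 genes SAUR61 to SAUR68 had values below 0, from -0.88 to -0.21 and from -0.77 to -0.18, and none passed.

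As a sum, SAUR19 to SAUR24 had 8.88 and 10.4 CPM with MT and 14.0 and 15.3 CPM with IAA, a log2 fold change of -0.60 ± 0.15 (adjusted p = 0.138). SAUR61 to SAUR68 had 21.9 and 24.2 CPM with MT and 30.7 and 31.8 CPM with IAA (-0.44 ± 0.09, adjusted p = 0.106). The sum of SAUR14 to SAUR16 had -0.61 ± 0.13 (adjusted p = 0.111). In edgeR's test 0 of the 7 locus sums passed with MT against IAA (0.164% of all rows) or with IAA against control (0.328%). DESeq2 called these 3 sums with MT against IAA, and 0 with IAA against control. Among single genes SAUR15 had -1.22 ± 0.33 (adjusted p = 0.156), SAUR12 -1.06 ± 0.33 (0.192), SAUR20 -0.88 ± 0.24 (0.162) and SAUR14 -0.84 ± 0.19 (0.124). SAUR10 had 0.537 and 0.228 CPM with MT and 0.586 and 0.757 CPM with IAA, without overlap (-0.82 ± 0.52, adjusted p = 0.475).

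**Figure D5:**
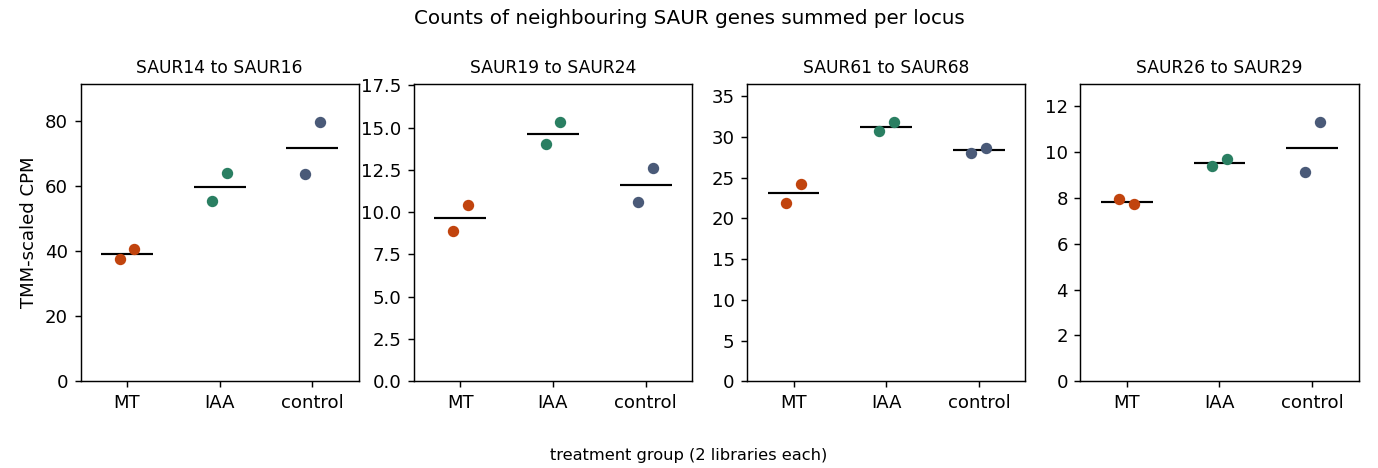
TMM-scaled CPM summed over the listed neighbouring SAUR genes of 4 loci, with each point a library and the line the mean of 2 libraries. All 4 sums are lowest with MT, that of SAUR14 to SAUR16 at 37.5 and 40.5 CPM. Highest with IAA are the sums of SAUR19 to SAUR24 (14.0 and 15.3 CPM) and SAUR61 to SAUR68 (30.7 and 31.8 CPM).

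Genes that act with SAUR proteins were counted over lists. The lists were chosen with earlier results of these data known, so their shares are descriptions only. In edgeR's test 0 of 6 auxin receptor genes, 0 of 5 activating auxin response factors and 0 of 10 tested proton pump genes passed in any of the 3 comparisons. With MT against control 2 receptor genes, 1 response factor and 4 pump genes reached an unadjusted p below 0.05 (33.3%, 20% and 40% of each list, against 25.2% of all genes). Of the receptor genes TIR1 lay lower (-0.26 ± 0.08) and AFB5 higher (0.21 ± 0.08). The response factor, ARF8, lay higher (0.39 ± 0.11), and all 4 pump genes, AHA2, AHA5, AHA9 and AHA11, lay lower. DESeq2 called 0 receptor genes, 1 response factor (higher) and 2 pump genes (lower), and 2905 genes over all. Aux/IAA repressors hold back auxin response factors, and many of their genes, but not all, are induced by auxin. Of 28 tested Aux/IAA genes 3 fell and 0 rose with MT against control in edgeR's test (10.7%). Of all genes 3.65% were called lower, 3.99% higher and 7.65% in either direction. At an unadjusted p under 0.05 there were 12 of the 28 (42.9%, against 25.2% of all genes), and DESeq2 called 7 lower and 1 higher. IAA19 had 5.77 and 5.02 CPM with MT and 11.8 and 14.9 CPM in the control (-1.31 ± 0.22, adjusted p = 0.019), IAA3 had -0.66 ± 0.10 and IAA16 had -0.49 ± 0.08. Of 9 phosphatase 2C genes, placed in clade D from general knowledge and not from an annotation used here, 1 rose and 1 fell with MT in edgeR's test (22.2%, against 7.65% of all genes called in either direction). There were 5 of the 9 at an unadjusted p under 0.05 (55.6%), and DESeq2 called 3 lower and 1 higher. AT4G33920 had 69.8 and 62.4 CPM with MT and 42.9 and 41.9 CPM in the control (0.64 ± 0.08, adjusted p = 0.00817). AT3G12620 had 36.6 and 31.8 CPM with MT and 52.9 and 49.0 CPM in the control (-0.57 ± 0.11, adjusted p = 0.0274). RefSeq names both as protein phosphatase 2C family genes.

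Of 8 other transcription factor genes whose products bind SAUR promoters, 3 rose and 0 fell with MT against control in edgeR's test (37.5%). Of all genes 3.99% were called higher and 7.65% in either direction. This list too was chosen with earlier results of these data known. There were 5 of the 8 at an unadjusted p under 0.05 (62.5%), and of these BZR1 lay lower (-0.22 ± 0.08, adjusted p = 0.156). DESeq2 called 4 of the 8, all higher. PIF3 (phytochrome interacting factor) had 66.0 and 51.1 CPM with MT and 16.9 and 14.2 CPM in the control (1.91 ± 0.17, adjusted p = 0.00384). PIF4 had 38.3 and 26.5 CPM with MT and 13.1 and 13.3 CPM in the control (1.29 ± 0.18), and BES1, a brassinosteroid response factor, had 0.68 ± 0.15. PIF1 (0.46 ± 0.11) and HY5 (0.24 ± 0.16) lay above 0 and did not pass. PIF5 (-0.16 ± 0.17) and PIF7 (-0.14 ± 0.14) lay below 0 and did not pass either. With IAA against control and with MT against IAA 0 of the 66 tested genes of these 6 lists passed in edgeR's test. An unadjusted p under 0.05 was found for 13 of them with IAA against control (19.7%, against 14.3% of all genes) and for 21 with MT against IAA (31.8%, against 17.4% of all genes). DESeq2 called 2 of them with IAA against control, where it called 768 genes over all, and 11 with MT against IAA, where it called 1225 and gave no adjusted p for 11 of the 66.

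Tissue markers moved too with MT against control, where 2 of 13 rose and 1 fell (3.99% of all genes were called higher and 3.65% lower). The antenna genes LHCB1.1 (0.91 ± 0.09) and CAB3 (1.95 ± 0.14) rose and the endodermis gene CASP5 (-1.27 ± 0.21) fell, and near-identical copies can share reads with both antenna genes. With IAA against control CAB3 rose (1.11 ± 0.14) and 0 of the 13 fell (0.272% of all genes were called higher and 0.0609% lower). The 2 stele markers summed to 115.9 to 120.2 CPM with MT, 119.9 to 123.0 CPM with IAA, and 83.4 to 104.5 CPM in the control, and the 2 root tip markers to 5.0 to 5.1 CPM with MT, 5.6 CPM in both IAA libraries and 2.4 to 4.4 CPM in the control. Summed markers of leaf mesophyll were 11454.6 to 11990.3 CPM with MT, 9638.9 to 10153.8 CPM with IAA, and 12468.8 to 13025.0 CPM in the control. These sums were nearly all RBCS1A, a Rubisco small subunit gene, with 11200 and 10700 CPM with MT, 9630 and 9180 CPM with IAA, and 12200 and 12700 CPM in the control. Its value was -0.19 ± 0.06 with MT against control (adjusted p = 0.128), opposite in sign to the antenna genes, and -0.41 ± 0.07 with IAA against control (adjusted p = 0.0756). Summed endodermis markers were 49.5 to 54.7 CPM with MT, 49.4 to 72.5 CPM with IAA, and 58.6 to 79.0 CPM in the control. The low IAA sum came from ESB1, at 0.969 CPM in replicate 1 and 27.4 CPM in replicate 2, while CASP1 had 44.9 and 41.7 CPM with IAA. The part of these shifts in the SAUR values was not tested, and in whole seedlings fewer cells of a type and less RNA per cell cannot be told apart.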

How the data were processed

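The authors deposited a single table of whole-number counts per gene, not normalized. The submitters' processing notes list HTSeq 0.6.1, TopHat2 2.0.12, DESeq 1.18.0 and Bowtie2 2.2.3. Which genome build, annotation and strand setting they used is not given in the sources. The 39 genes are listed by family, not by measured values, but they and all lists were chosen with earlier results of these data known.

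The quasi-likelihood test of edgeR 4.0.16 (R 4.3.3) was fitted to all 6 libraries, with the group as its single term, TMM factors and 3 residual degrees of freedom, on 21355 genes kept by filterByExpr. Benjamini-Hochberg adjustment ran over all of these genes, and adjusted p-values come from edgeR where no tool is named. For locus sums the counts of neighbouring members replaced them and the table was refitted. CPM use TMM-scaled library totals, and ± after a log2 fold change is SE. The scripts were tested on simulated data. Alternatives were DESeq2 1.42.0, other factors, filters, empirical Bayes, a replicate block and leaving out each library.

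Libraries of a group differed by 25.6 to 32.8 times counting noise (chi-square over degrees of freedom), so none was taken for a repeat deposit of the other; this does not show that they are separate cultures. Genes named with values were those called, those with no overlap between MT or IAA and control and a log2 fold change of at least 0.5 in size, and the most abundant copy per locus. SAUR25 was named with its counts as too low to test. Other SAUR genes given a value were named after their values were seen. Identity was computed on coding sequences in place of the planned protein sequences. Of each pathway list all called genes were named. Other genes of these lists that are named were chosen after their values were seen.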

Additional observations from a re-analysis of the deposited data

How the results depend on the processing

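With MT against control 3 SAUR genes passed. DESeq2 called 6 (SAUR15, SAUR36 and SAUR62 in addition) and robust empirical Bayes 5 (SAUR15 and SAUR36 in addition), while leaving out a library gave 0 to 2. Over all genes edgeR called 1633 here, DESeq2 2905, robust empirical Bayes 1977, and edgeR without a library 493 to 1300. With only the MT and control libraries in the fit 2 passed, SAUR16 being lost (adjusted p = 0.058). Of the locus sums 1 passed, and leaving out a library gave 0 to 1. With MT against IAA, where 0 passed, DESeq2 called 1 gene and 3 locus sums, and leaving out a library gave 0 to 1 genes (SAUR14 without MT replicate 2, adjusted p = 0.0498). Over all genes edgeR called 37 here, DESeq2 1225, and 340 passed without MT replicate 2. With IAA against control 0 genes and 0 locus sums passed in every alternative run. Where an omission left a group with 1 library, that library was assumed to vary like the other groups. Over 43 named log2 fold changes and 594 alternative values with an adjusted p, 0 changed direction, 17 lost a call and 12 gained one; the causes were not tested. With the replicate number as a block 3 genes passed with MT against control, SAUR14, SAUR15 and SAUR16, and SAUR78 did not (-0.37, adjusted p = 0.0565). The labels do not say that the numbers pair libraries, and deviations of same-numbered libraries correlated with r from 0.007 to 0.079 over 21355 genes. Depth limited the lowest genes: SAUR61 and SAUR68 had 7 to 29 counts per library and SE of 0.64 to 0.69.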

Other observations

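RefSeq names 79 loci with a SAUR number, of which 40 are not among the 39 genes above. A further locus that carries the same number as a listed gene was left out. Of the 40, 36 were in the count table and 27 had enough counts to be tested. With MT against control 1 of the 27 rose in edgeR's test, SAUR57 (AT3G53250), and 0 fell (3.7%, against 3.99% of all genes called higher and 3.65% lower). At an unadjusted p under 0.05 there were 7 of the 27 (25.9%, against 25.2% of all genes), and DESeq2 called 1 higher and 1 lower. It had 64 and 47 counts with MT, 11 and 7 counts with IAA, and 4 and 8 counts in the control, a log2 fold change of 3.17 ± 0.55 with MT against control (adjusted p = 0.0209). It was named after its value was seen. With IAA against control and with MT against IAA 0 of the 27 passed in edgeR's test or DESeq2, which gave no adjusted p for 21 of them with MT against IAA. An unadjusted p below 0.05 was found for 3 with IAA against control (11.1%, against 14.3% of all genes) and for 5 with MT against IAA (18.5%, against 17.4%). The median log2 fold change of the 27 genes was -0.22 with MT against control, beside 0.002 over all genes. It was -0.13 with IAA against control, beside 0, and -0.17 with MT against IAA, beside -0.005.

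Libraries of a group differed in the level of SAUR genes. For MT 22 of 38 tested genes were higher in the library labelled replicate 2 than in replicate 1 (57.9%, against 50.2% of all genes), with a median log2 ratio of 0.08, and for IAA 26 of 38 (68.4%, against 50% of all genes), with a median of 0.22. In the control 27 of 38 were higher in replicate 2 (71.1%, against 52.1% of all genes), with a median log2 ratio of 0.18.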
